A study of Mus musculus with 4 samples.

Results

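The exercise by tumor interaction was calculated for each gene of mouse gastrocnemius, the large calf muscle, as the exercise effect in tumor-bearing mice minus the exercise effect in healthy mice. Members were all rows of the expression table with a mean normalized count of at least 64 over the 4 libraries, which kept 9324 of 23282 rows (40.0%). An interaction of 0 on the log2 scale means that exercise and tumor changed a gene by amounts that simply added up. An interaction of 2 means that the change with exercise was 4-fold more upward in tumor-bearing than in healthy mice, and −2 that it was 4-fold more downward. Rows at or past 2 were called the upper tail and rows at or past −2 the lower tail.

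The 4 groups, with 1 library each, were sedentary healthy mice, E(−)T(−), called normal control, exercised healthy mice, E(+)T(−), called normal exercise, sedentary tumor-bearing mice, E(−)T(+), called cancer control, and exercised tumor-bearing mice, E(+)T(+), called cancer exercise. All mice were male and of strain CDF1, labelled postnatal day 28, an age that the methods give for purchase. E(+) mice ran on a treadmill at high intensity, and T(+) mice were injected through the tail vein with CT26 cells, a murine colorectal cancer line. Neither exercise nor tumor cells were given to normal control mice. The labels name 10 mice per group, whereas the study describes 1 representative mouse per group for sequencing, and whether a library holds 1 animal or several was not settled. Since no group was replicated, no test was possible: every interaction below is a difference between 4 single libraries, and exercise, tumor and the individual animals of a library cannot be told apart.

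A 3′-end method counted about 1 read per transcript. The reads rebuilt from the deposited values numbered from 10647422 in cancer control to 13225971 in normal exercise, and 14427 to 14830 rows had reads in each library. Levels below are normalized counts, always in that order, so the sedentary and exercised healthy libraries come first and the sedentary and exercised tumor-bearing libraries after them. Intervals in brackets are 95% intervals of the interaction on the log2 scale from the reads alone. They cover counting error and nothing of the spread between mice. Transcripts of fast fibers identified the tissue. Myh4, the myosin heavy chain of the fastest fibers, stood at 228842, 137302, 195389 and 141947, and Acta1, the skeletal actin, at 347342, 271387, 134849 and 204111.

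Skeletal muscle is built of fibers that contain contractile proteins in slow or fast forms, surrounded by a collagen-rich matrix made by fibroblasts and by tendon cells, with fat cells, nerve, vessels and blood in the same tissue. Endurance work is known to draw on mitochondrial oxidation and on slow fibers. Cachexia, the wasting that accompanies many tumors, is known for loss of contractile and matrix transcripts and for a rise of protein breakdown and acute phase genes. RNA of a whole muscle sums over all of these cells, so fewer cells of a type and less RNA per cell cannot be told apart.

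Over all members the interaction was centred near 0, with a median of 0.02. It was above 0 in 4744 rows and below 0 in 4579. The middle 50% of rows lay between −0.50 and 0.59, and the outer 1% on each side began at −2.20 and 3.01. The upper tail held 278 rows (2.98%) and the lower tail 137 rows (1.47%), so the upper was 2.03 times as long. That excess depended on the scaling of the libraries. When the reads were scaled to the library totals instead, the median of all members shifted by −0.23, and the tails held 210 and 213 rows, so that 49.6% of tail rows were upper in place of 67.0%. The list medians below were lower under this scaling as well, and that of the unfolded protein response turned from 0.01 to −0.22.

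At the edge of the selection, Rad51d and Elmsan1, with means of 63.96 and 63.97, were the last rows left out, and 2900008C10Rik and Pex26, at 64.04 and 64.05, the first kept. At the tails, Penk (1.997) lay just outside and Lcor (2.003) just inside the upper one, and Fbxo42 (−1.995) just outside and Fnip2 just inside the lower one. The share of rows in a tail differed with the level: 4.05% of the 4102 rows with a mean of up to 4 times the minimum were in the upper tail and 2.15% in the lower, compared with 2.01% and 0.892% of the 3475 rows in the next 4-fold step. Of the 395 rows with a mean over 64 times the minimum, 17 were in the upper tail and 3 in the lower, which is 4.3% and 0.759%. Over all members with an interval, the median half-width from counting error was 0.34. Tail rows had lower levels, with median means of 155 in the upper and 146 in the lower tail, compared with 312 over all members. The interval excluded 0 in all 267 upper rows and in 131 of 132 lower rows that had reads in every library. These rows were selected for interactions at or past 2 or −2, so this adds no support for them.

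A mean of 64 can be passed through a single high library. With a level of at least 64 asked of every library, 7779 rows were left, and the upper tail held 91 of them (1.17%) and the lower 53 (0.681%).

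**Figure D1:**
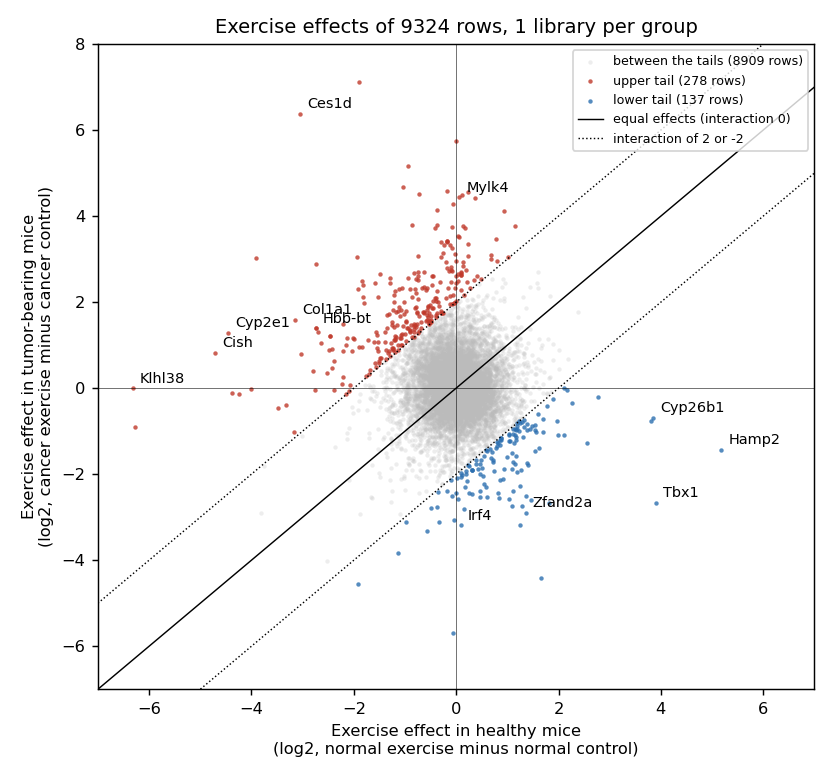
Each point is 1 of 9324 rows, with the exercise effect in healthy mice on the x axis and in tumor-bearing mice on the y axis, both on the log2 scale. The 278 rows of the upper tail (red) lie above the upper dotted line, mostly left of or near the vertical zero line, and the 137 rows of the lower tail (blue) lie below the lower dotted line.

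By its arithmetic the interaction is high when cancer control or normal exercise is low, or when normal control or cancer exercise is high, so the selection itself favors these patterns, and the shares below only describe the selected rows. In the upper tail cancer control was the lowest library of 235 of 278 rows (84.5%), and normal exercise of 42. Normal control was the highest library of 198 rows (71.2%) and cancer exercise of 51. In the lower tail cancer control was the highest library of 121 of 137 rows (88.3%), and normal exercise of 15. Normal control was the lowest of 91 rows (66.4%) and cancer exercise of 39. Over all members, cancer control was the lowest library in 35.2% of rows and the highest in 33.7%, and normal control in 27.2% and 25.8%. Among the rows at 64 or more in every library, the shares with cancer control lowest in the upper tail and highest in the lower tail were 79.1% and 92.5%. Since the interaction needs all 4 libraries, it could not be calculated without cancer control.

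The median effect of the tumor on the upper tail was −2.92 in sedentary mice and −0.20 in exercised mice. For the lower tail it was 2.37 in sedentary mice and −0.04 in exercised mice. The small medians of the exercised pair came from rows on both sides, since 56 upper rows were at least 2-fold higher and 73 at least 2-fold lower with the tumor in exercised mice, as were 26 and 28 lower rows. Seen as exercise effects, 157 upper rows (56.5%) differed at least 2-fold in tumor-bearing mice only, 49 (17.6%) in healthy mice only, and 69 (24.8%) in both and in opposite directions. The lower tail divided similarly, into 67 (48.9%), 28 (20.4%) and 40 (29.2%) rows. Over all members, 13.1%, 4.19% and 1.17% of rows had these patterns. In 64 of the 278 upper rows the other 3 libraries lay within 2-fold of each other and cancer control alone was more than 2-fold below them, and in 28 of the 137 lower rows it alone was more than 2-fold above them, both on the log2(count + 1) scale, compared with 3.89% and 1.77% of all members. No other library stood apart in this way in more than 8 rows of a tail.

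**Figure D2:**
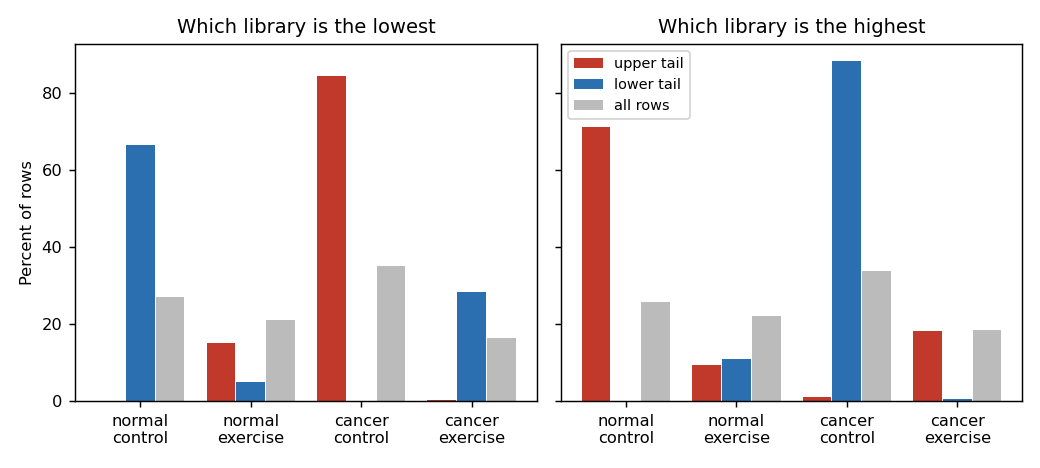
Bars give the percent of rows for which each library was the lowest (left) or the highest (right), for the upper tail, the lower tail and all 9324 rows. Cancer control was the lowest library in 84.5% of the upper tail and the highest in 88.3% of the lower tail.

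Matrix genes were in the upper tail. The family of collagen chains named Col had the highest median of the 106 symbol families with at least 10 members, 1.62, and all 17 of its members were above 0, with 7 in the upper tail and none in the lower. Col1a1 (chr11:94936224-94953042), a chain of type I collagen, the main fiber of tendon and bone, stood at 9741, 1096, 124 and 377. Both groups with 1 of the 2 conditions were thus lower than normal control, and the group with both was higher than the one with the tumor alone. The interaction of Col1a1 was 4.74 (4.44 to 5.07), and added effects would have left 13.1 counts in cancer exercise. Col3a1, a chain of type III collagen, stood at 8421, 1300, 212 and 523, an interaction of 3.99 (3.75 to 4.25). Col5a2, a chain of type V collagen, which sets fiber width, stood at 995, 216, 50.4 and 144 (3.70). Col6a3, of the collagen VI network around fibers, was at 2185, 1043, 104 and 524 (3.39). All 4 of these chains were lowest in cancer control and highest in normal control.

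The wider list of collagens and the enzymes that assemble them had a median of 1.04, with 27 of 32 members above 0. Its members at the low end were modifying enzymes of the endoplasmic reticulum, such as P4ha1 at −0.66 and Plod3 at −0.48. Matricellular proteins and proteoglycans had a median of 0.87, with 6 of 29 members in the upper tail. Fmod, a small proteoglycan that binds collagen fibrils, stood at 2343, 815, 47.2 and 209 (3.65), and Lum, its relative, at 1707, 804, 102 and 364 (2.91). Kera, a keratan sulfate proteoglycan, had 457, 156, 0 and 7 reads, an interaction of at least 9.07-fold with 3 reads as the floor for the library at 0. Markers of tendon had a median of 1.78, with 5 of 13 in the upper tail, and a median of 0.77 over the 6 at 64 or more in every library. Thbs4, a matricellular protein of tendon and muscle, was at 6038, 3455, 1346 and 3714 (2.27). Markers of fibroblasts had a median of 1.01, and 17 of 18 were above 0. Dpt, a matrix protein of fibroblasts, stood at 2975, 1169, 210 and 554 (2.74).

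The summed fibroblast markers made up 1.02%, 0.792%, 0.492% and 0.537% of the reads, and the summed tendon markers 0.13%, 0.076%, 0.0701% and 0.0782%. Both sums were thus highest in normal control and lowest in cancer control. They include matrix genes named above, such as Lum and Fmod, so they are no separate measure of fibroblast or tendon tissue. The part of such tissue in the interaction of the matrix genes was not tested.

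Transcripts of red cells had the highest median of all lists, 2.47, with 10 of 16 members in the upper tail. Hbb-bs, an adult beta globin, stood at 63522, 11449, 66128 and 153725, an interaction of 3.69 (3.66 to 3.72). Hbb-bt, the neighboring beta globin, stood at 17353, 2588, 15149 and 39786 (4.14), and Hba-a2, an alpha globin, at 3839, 611, 2958 and 6105 (3.69). Here normal exercise was the lowest library and cancer exercise the highest, unlike in the matrix genes. Alas2, the first enzyme of heme synthesis in red cells, had an interaction of 3.31. Globin genes are near-identical copies, and rows such as Hbb-bt and Hbb-b2 can share reads, so that their split is uncertain. The summed red cell markers, the globins above among them, took 2.8%, 0.673%, 2.82% and 5.88% of the reads. Since the sum includes these rows, it is no separate measure of blood, and the part of blood was not tested. The 3 members below 0, Xpo7, Sptb and Bnip3l, are genes that other cells use as well.

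Fat tissue genes were in the upper tail too. The white fat list had a median of 2.03, with 11 of 21 members in the tail. Cfd, the secreted protease adipsin, stood at 12085, 3642, 3739 and 8129, an interaction of 2.85 (2.77 to 2.93). Plin1, the coat of the lipid droplet in fat cells, was at 147, 87.6, 7.56 and 51.0 (3.34), and Retn, the adipokine resistin, at 472, 484, 56.8 and 363 (2.62). In Cfd both single conditions were low, whereas in Retn only cancer control was. Several of the highest single rows are also expressed in fat. Ces1d (chr8:93166068-93197838), a carboxylesterase that can release stored lipid, had 553, 87, 0 and 80 reads, at least 225-fold. Arxes2, a gene linked to fat cell formation, had 133, 46, 0 and 134 reads, at least 171-fold, and Pnpla3, a lipid hydrolase, had 199, 136, 0 and 34 reads, at least 22.0-fold. In all 3 the zero was in cancer control. Rbp7, a retinol-binding protein of fat and vessels, stood at 809, 226, 53.6 and 308 (4.33). The summed white fat list, in which the muscle gene Car3 weighs heavily, took 0.48%, 0.338%, 0.433% and 0.417% of the reads and so did not follow the order of these members.

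**Figure D3:**
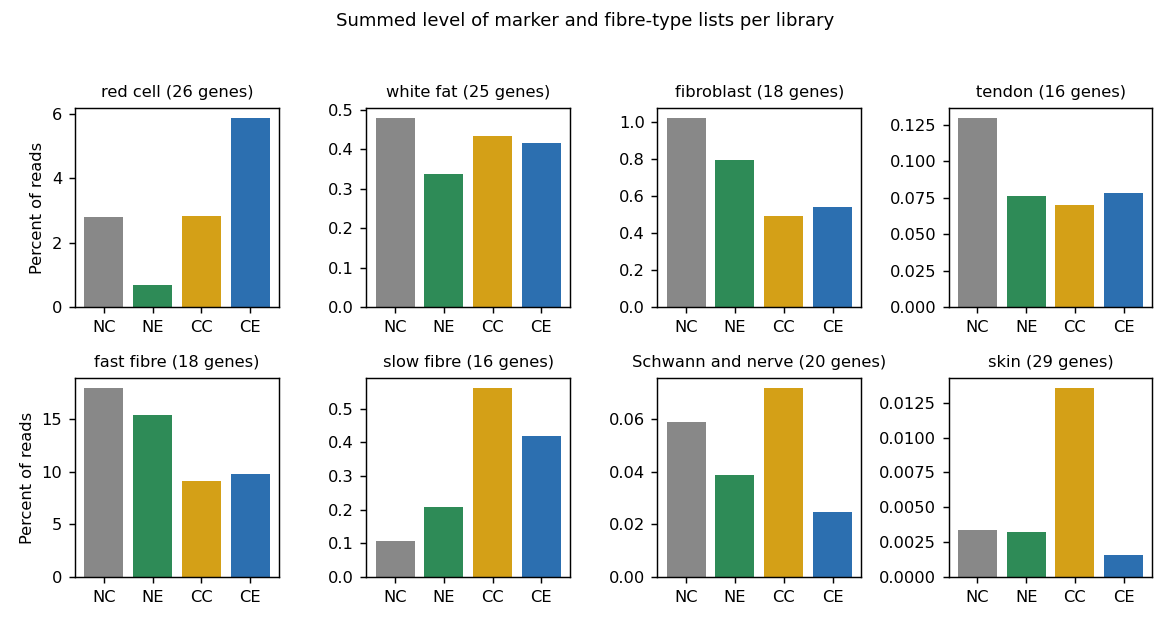
Bars give the percent of all reads taken by each list of genes in normal control (NC), normal exercise (NE), cancer control (CC) and cancer exercise (CE), with the y axis of each panel starting at 0. Red cell transcripts were lowest in normal exercise (0.673%) and highest in cancer exercise (5.88%), and slow fiber transcripts were highest in cancer control (0.563%).

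Fast and slow fiber genes lay on opposite sides. Of 18 fast fiber genes, 4 were in the upper tail and none in the lower, with a median of 0.76. Of 15 slow fiber genes, 5 were in the lower tail and none in the upper, with a median of −1.47, and 14 were below 0. Mylk4 (chr13:32700834-32783954), a myosin light chain kinase, stood at 7814, 8174, 35.4 and 785, an interaction of 4.37 (3.90 to 4.91). It was level in both healthy mice and far scarcer in cancer control than in any other library. Casq1, the calcium store protein of fast fibers, was at 16247, 12783, 659 and 2626 (2.34), and Myl1, a fast essential light chain, at 152769, 86115, 16394 and 37666 (2.03). The fast myosins themselves had smaller values, with 0.21 for Myh2, 0.28 for Myh4 and 0.62 for Myh1, and the value of Myh2 became −0.02 under total count scaling.

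Among the slow genes, Myl2, the slow regulatory light chain, stood at 1281, 3157, 4585 and 2080, an interaction of −2.44 (−2.56 to −2.32). Exercise and tumor alone each went with a higher level, and both together with a level below either. Tnnc1, the slow and cardiac troponin C, stood at 748, 1692, 3871 and 1688 (−2.37). Tnni1, slow troponin I, was at 267, 777, 1519 and 775 (−2.51), Myh7, the slow myosin heavy chain, at 379, 867, 1641 and 851 (−2.14), and Myl6b, a slow light chain, at 30.9, 67.2, 198 and 53.1 (−2.98). The order was the same in each: normal control lowest and cancer control highest. For Tnnc1, Tnni1 and Myh7, cancer exercise lay within a few percent of normal exercise. Ttn, the giant spring protein of the sarcomere, was at 0.77, whereas Myom3, an M-band protein of slow and intermediate fibers, stood at 78.8, 210, 556 and 160 (−3.19).

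Genes of energy metabolism lay above 0 in most members, with few of them in the tail. Complex I of the respiratory chain, which takes electrons from NADH, had 35 of 37 subunits above 0 with a median of 0.81 and none in a tail. Complex III had 9 of 9 above 0 (median 0.79), the ATP synthase 15 of 17 (0.77) and complex IV 14 of 16 (0.70), compared with 4744 of 9324 members. Of the Ndufb subunits of complex I, 10 of 10 were above 0. Cycs, cytochrome c, stood at 9101, 5784, 2591 and 5322 (1.69), and Cyc1, a heme subunit of complex III, at 2816, 1496, 832 and 1425 (1.69). Glycolysis and glycogen genes had a median of 0.94, with 5 of 40 in the upper tail. Pgam2, the muscle phosphoglycerate mutase, was at 23689, 15275, 3140 and 10608 (2.39), and Ppp1r3c, which directs glycogen synthesis, at 12296, 21246, 3417 and 26578 (2.17). Pfkfb3 (−1.43) and Hk2 (−0.72) of the same list were below 0.

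Some genes of excitation and contraction were found in the upper tail. Calcium handling genes had a median of 0.32, which was 0.09 under total count scaling. Of 38 members, 24 were above 0, with 3 in the upper tail and none in the lower. Trdn, triadin, which anchors calsequestrin, was at 52644, 33247, 10764 and 22272 (1.71), outside the tail. Mrln, the micropeptide myoregulin, which inhibits the calcium pump, stood at 5021, 2119, 530 and 1020 (2.19), and Sypl2, a protein of the triad junction, at 3612, 2522, 140 and 543 (2.46). Ion channels had a median of 0.63 over 26 members. Clcn1, the chloride channel that sets muscle excitability, was at 298, 326, 14.0 and 113 (2.79), and its gene range overlaps that of Fam131b in the RefSeq table, so reads of the pair may be shared. Parvalbumin (Pvalb), a calcium buffer of fast fibers, was at 246119, 152769, 13540 and 24440 (1.54), also outside the tail. The genes named so far in this paragraph were all lowest in cancer control. Of the 38 calcium handling genes, 25 were lower in cancer control than in normal control and 13 were higher. The muscle marker Atp2a1 was highest in cancer control, at 93714, 94957, 131435 and 120276 (−0.15).

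Factors that set muscle mass and identity were mixed. Mstn, or myostatin, which restrains muscle growth, stood at 420, 178, 208 and 391, an interaction of 2.14, with both single conditions low. Il15, a cytokine that muscle releases, was at 229, 86.7, 48.3 and 120 (2.69), and Fstl1, a secreted follistatin-like protein, at 2091, 760, 466 and 614 (1.86). Myf6, a myogenic factor of mature fibers, was at 801, 659, 388 and 1298 (2.02), Mef2c, a partner of such factors, at 16157, 11143, 2102 and 4941 (1.77), whereas Myog, or myogenin, was at 76.6, 174, 206 and 185 (−1.33). The list of myogenic and MEF2 factors had 3 of 25 members in the upper tail and a median of 0.26. The list of myokines and PGC-1 had a median of 0.82, with 19 of 25 above 0. Asb2, a ubiquitin ligase subunit of muscle, was at 6021, 2791, 983 and 4884 (3.42), and its family Asb had a median of 0.70 over 14 members.

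Branched-chain amino acid and glutamine genes had a median of 0.64, with 21 of 26 above 0. Bcat2, the mitochondrial transaminase of these amino acids, stood at 220, 93.1, 189 and 269 (1.74). Ckmt2, the mitochondrial creatine kinase, was at 9754, 5014, 2023 and 3204 (1.62). Imprinted genes, which are read from 1 parental copy, had 13 of 14 members above 0 with a median of 0.87. Ndn, necdin, was at 496, 281, 57.9 and 98.6 (1.58), and Mest at 168, 133, 42.9 and 107 (1.64), and its gene range overlaps that of Copg2, with the same limit. Nnat, neuronatin, had 295, 4, 16 and 8 reads, with normal control far above the other 3 libraries and a value of 5.36 (3.74 to 7.49).

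In 5 named genes, set together after their values were seen, normal exercise was the lowest library. Pdk4, the kinase that shuts off pyruvate dehydrogenase when fat is burned, stood at 427, 21.7, 1060 and 969, an interaction of 4.11 (3.58 to 4.73). Angptl4, an inhibitor of lipoprotein lipase, was at 168, 23.3, 82.5 and 108 (3.19), and Ucp3, a mitochondrial carrier of muscle, at 593, 145, 251 and 562 (3.19). Chac1, which degrades glutathione in the stress response to scarce amino acids, was at 968, 59.0, 478 and 473 (4.00). Klhl38, a kelch-like protein of muscle, had 74, 0, 117 and 116 reads, at least 32.4-fold. In Pdk4, Chac1 and Klhl38 both tumor-bearing libraries were level, and normal exercise was the low library.

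Cish and Cyp2e1 were the highest rows among those at 16 or more in every library. Cish (chr9:107296026-107302784), an inhibitor of cytokine signaling that STAT5 induces, stood at 1341, 50.1, 296 and 523, an interaction of 5.54 (5.14 to 5.99). Cyp2e1 (chr7:140763739-140774987), a cytochrome P450 known from liver and fat, stood at 1503, 67.1, 418 and 1022, an interaction of 5.75 (5.41 to 6.14). Normal exercise was the lowest library of both by a wide margin. Ptpn3, a tyrosine phosphatase, was at 268, 70.4, 69.7 and 347 (4.21), and Tspan8, a tetraspanin, at 1166, 387, 213 and 1164 (4.03). Mybph, a myosin-binding protein, was at 922, 261, 27.9 and 152 (4.22), and its exons overlap those of Adora1 on the other strand, so that reads of the 2 genes may be mixed. Kcnf1, a potassium channel subunit, was at 155, 22.5, 15.1 and 117 (5.61). Myod1, the myogenic factor of satellite cells and fast fibers, was at 306, 289, 21.5 and 213 (3.34), low in cancer control alone. Mettl21e, a muscle methyltransferase, rested on 1 read in cancer control and had 524, 45, 1 and 15 reads, which left an interval of 4.90 to 10.81 around a value of 6.93.

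The single largest negative interaction was that of Hamp2 (chr7:30922372-30924681), a paralog of the iron hormone hepcidin, which stood at 52.2, 1930, 5366 and 1990. Exercise alone and tumor alone each went with a level far above that of normal control, and both together with about the level of exercise alone. The interaction of Hamp2 was −6.61 (−7.06 to −6.23), and added effects would have given 194984 counts. Cyp26b1 (chr6:84571414-84593908), which degrades retinoic acid, stood at 264, 3829, 735 and 457 (−4.54), and it was high in normal exercise alone. Tbx1, a T-box transcription factor, was at 5.37, 94.0, 259 and 40.1 (−6.56), with only 5 reads behind its level in normal control. Zfand2a, a stress-induced partner of the proteasome, was at 43.7, 113, 482 and 63.98 (−4.25).

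Further rows at the low end had moderate levels. Tnfrsf23, a decoy receptor for TRAIL, was at 34.1, 90.0, 253 and 43.4 (−3.89), and Dyrk2, a protein kinase, at 56.4, 116, 252 and 41.2 (−3.61). Ampd3, an AMP deaminase, was at 35.2, 84.9, 1128 and 234 (−3.51). Irf4, an interferon regulatory factor, was at 37.3, 39.6, 216 and 22.8 (−3.27), which left it level in healthy mice. Exoc3l4 (−3.84) was highest in normal exercise, at 276, and Ptpn9 (−3.83) lowest in cancer exercise, at 17.4. Spidr (−3.40) overlaps the exons of Cebpd on the other strand. Cebpd itself, a C/EBP factor of inflammation, was at 629, 481, 7648 and 4281.

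**Figure D4:**
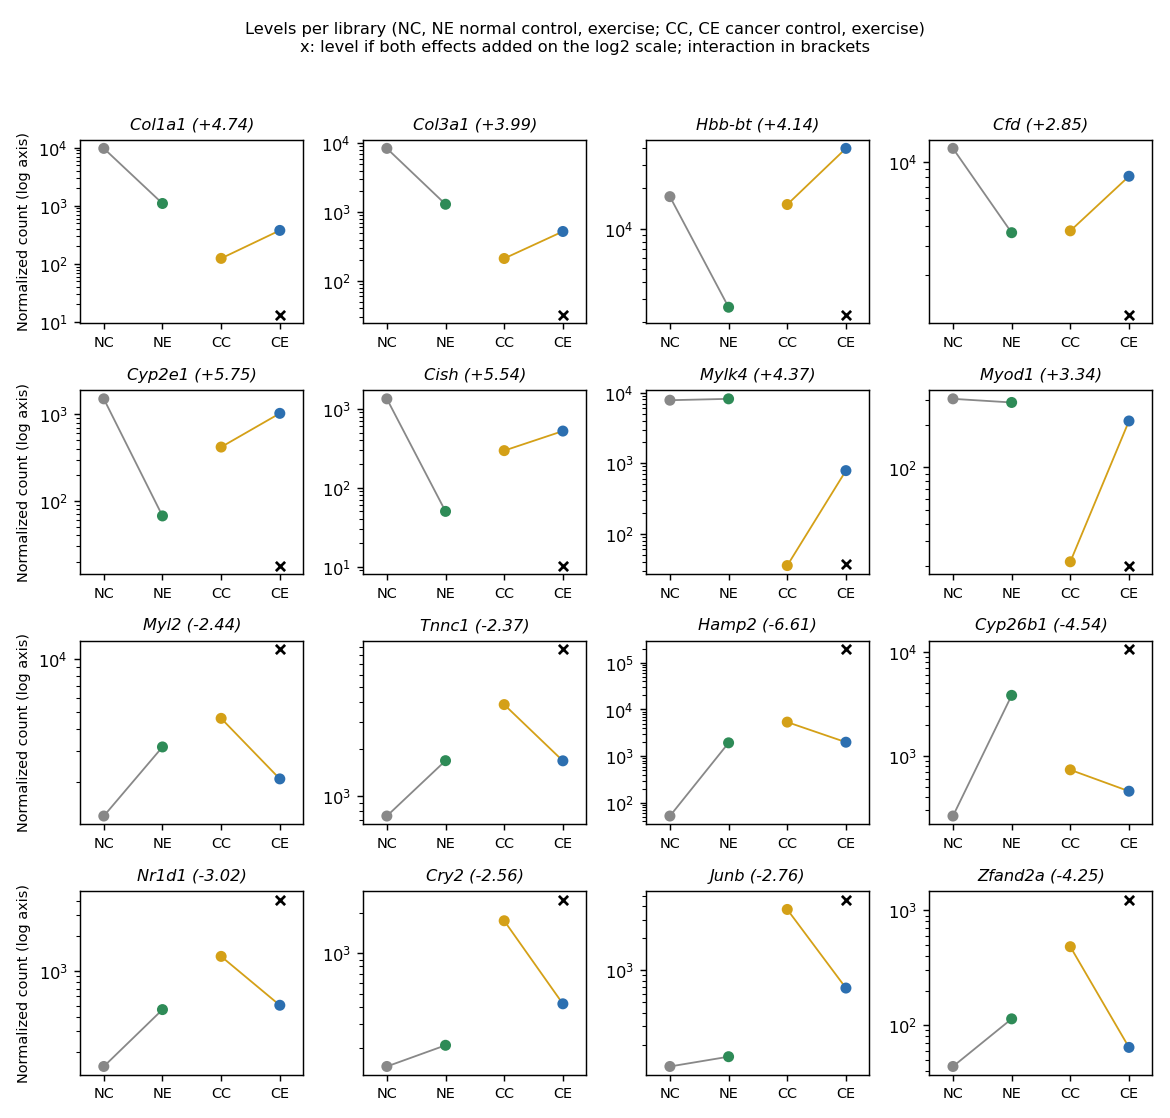
Points give the normalized count of 16 genes in each library on a log axis that differs between panels, lines join the sedentary and exercised library of healthy (gray) and tumor-bearing (yellow) mice, and the cross marks the level in cancer exercise if both effects had added on the log2 scale. In Col1a1 the cross lies at 13.1 below a measured 377, and in Hamp2 at 194984 above a measured 1990.

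Clock genes lay mostly below 0, at 17 of 22, with a median of −0.61 and 2 in the lower tail. Nr1d1, the repressor REV-ERB alpha, stood at 149, 461, 1327 and 503, an interaction of −3.02 (−3.34 to −2.72), and its exons overlap those of Thra on the other strand. Cry2, a repressor of the same loop, was at 146, 209, 1743 and 424 (−2.56). Per3 was at 52.2, 126, 87.8 and 53.1 (−1.97). The activators Clock (0.23) and Arntl (0.21) were near 0. The hour at which each muscle was taken was not used here.

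Immediate early and inflammatory genes made up another portion of the lower tail. Of 30 immediate early genes, 4 were in the lower tail and 1 in the upper, with a median of −0.44, which was −0.26 over the 24 at 64 or more in every library and −0.67 under total count scaling. Junb, an AP-1 factor, stood at 125, 154, 3742 and 681 (−2.76), and its exons overlap those of Prdx2 on the other strand. Maff, a small Maf factor, was at 37.3, 84.9, 1003 and 338 (−2.73), and Ifrd1, a co-regulator of muscle repair, at 1070, 2401, 10043 and 4560 (−2.30). Jun was the exception, at 2.53. The acute phase list held 6 of 24 members in the lower tail, with a median of −0.21, and that median was 0.05 among the members at 64 or more in every library. Lcn2, the iron-binding lipocalin of neutrophils and stressed epithelium, was at 5.37, 26.6, 1434 and 670. Its interaction was −3.21 (−4.79 to −2.07), with only 5 reads behind its level in normal control. S100a8, a calcium-binding protein of neutrophils, was at 17.1, 71.2, 2054 and 958 (−3.10). S100a9, its partner, was at 50.1, 75.2, 444 and 695 (0.07), so the pair did not share a value. Summed neutrophil markers were 567, 605, 4995 and 3767 counts. Their part in the acute phase values was not tested.

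Genes of protein turnover lay below 0 in most members. Of 48 proteasome subunits 39 were below 0, with a median of −0.71, and the Psmd family of its regulatory cap had a median of −0.80. Psmc4, an ATPase of that cap, was the member in the lower tail, at 564, 1157, 3912 and 1838 (−2.13). Cytosolic ribosomal proteins were below 0 in 77 of 85 members (median −0.38) and autophagy genes in 27 of 35 (−0.47). Gabarapl1, which decorates the autophagosome, was at 783, 646, 7696 and 2063 (−1.62). Under total count scaling these medians lay 0.23 lower, the amount by which all members moved. The Snhg family, host transcripts of small nucleolar RNAs, had the lowest median of the 106 families, −1.31, with 10 of 12 below 0. Snhg6 was at 502, 823, 2185 and 682 (−2.39). The ubiquitin ligases of atrophy had a median of 0.30, which was 0.18 over the 20 at 64 or more in every library and 0.07 under total count scaling. Fbxo32, or atrogin-1, was at 3575, 812, 37250 and 18103 (1.10), lower with exercise in both pairs.

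**Figure D5:**
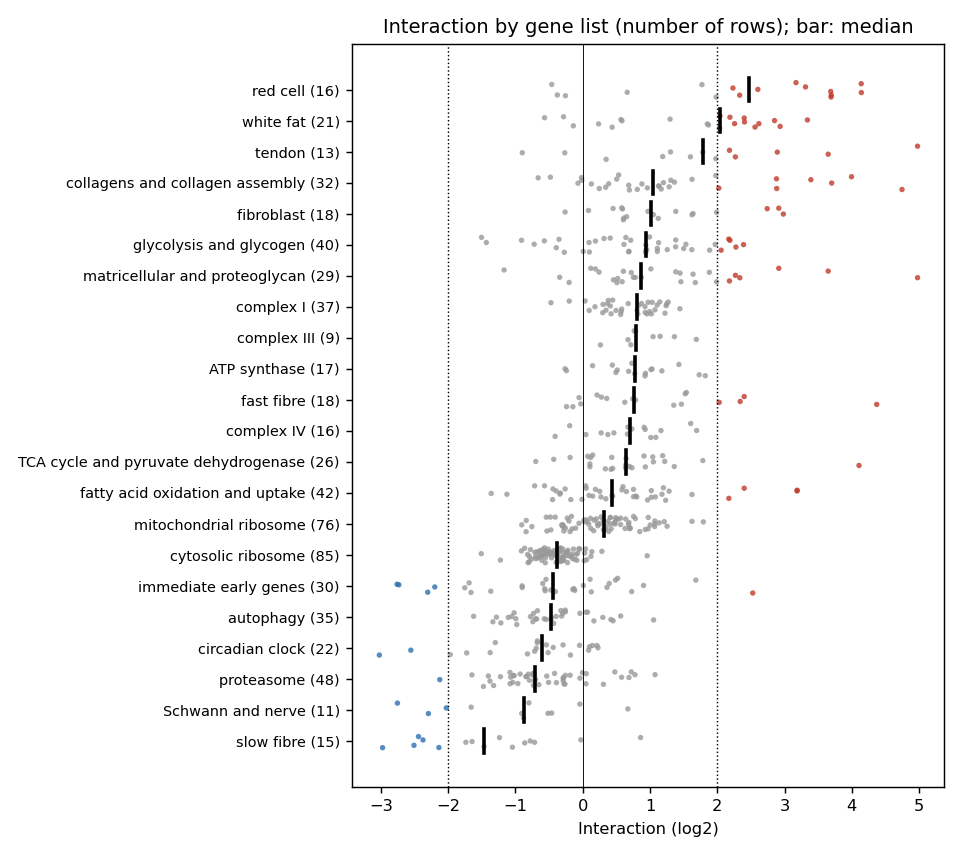
Each point is the interaction of 1 gene on the log2 scale in 22 lists of genes, black bars are medians, and points past the dotted lines at 2 and −2 are in the upper (red) or lower (blue) tail. Medians run from 2.47 for red cell genes to −1.47 for slow fiber genes.

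Schwann cell genes were lowest in the exercised tumor-bearing mouse. Of 11 members 10 were below 0, with a median of −0.88 and 3 in the lower tail. Ncmap, a myelin protein of peripheral nerve, stood at 112, 75.3, 388 and 37.99 (−2.75), Mal, a myelin lipid raft protein, at 94.7, 67.2, 193 and 27.2 (−2.29), and Drp2, a dystrophin relative of Schwann cells, at 166, 154, 523 and 118 (−2.03). The summed Schwann and nerve list, which includes these genes, took 0.0591%, 0.0387%, 0.0721% and 0.0247% of the reads. It is thus no separate measure of nerve in the sample, and the part of nerve was not tested. Skin markers, of which 2 were members, summed to 403, 348, 1549 and 186 counts. Some lipid synthesis genes were highest in normal exercise. Scd2, a fatty acid desaturase, stood at 466, 1353, 450 and 163 (−3.00), Acly, which makes cytosolic acetyl-CoA, at 710, 2031, 377 and 307 (−1.81), and Mvd, of the sterol pathway, at 36.2, 166, 92.1 and 88.8 (−2.21), although the list as a whole had a median of −0.28. Scd1 (1.87) and Fasn (2.03), of the same synthesis, were above 0.

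Several lists had medians near 0, which were −0.01 for interferon response and MHC genes over 39 members, 0.01 for the unfolded protein response over 37, −0.06 for IGF, insulin and mTOR genes over 37, −0.03 for aminoacyl-tRNA synthetases over 20 and −0.08 for endothelial markers over 23. These 5 medians moved to between −0.31 and −0.22 under total count scaling, along with all members, and that of interferon response and MHC genes was −0.30 over the 21 at 64 or more in every library. Within such lists single genes still differed. Pdia4, a disulfide isomerase of the endoplasmic reticulum, was at 136, 73.8, 33.3 and 94.2 (2.35), and Akt1, a kinase of insulin signaling, at 1220, 3160, 7611 and 7296 (−1.43). Macrophage markers had a median of 0.33 and none in a tail, and none of the 16 lymphocyte markers in the table reached the minimum mean.

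Of the 278 upper and 137 lower rows, 82 and 33 belonged to any of the lists, so that 196 and 104 tail rows stand outside the groups described here.

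Promoter sequence was compared between the tails over windows of 250 bases before to 50 after the RefSeq start (GRCm38.p6). A window was matched by symbol for 202 upper, 107 lower and 7137 of all members. On both strands, the cAMP response motif TGACGTCA was in 7.48% of lower windows, 2.97% of upper windows, 3.47% of member windows and 1.88% of all 27025 promoters. The 8 lower genes with it were Tmem183a, Ints7, Zwint, Arl4d, Trmt61a, Zfp874a, Zfand2a and Gpm6b. The STAT motif TTCNNNGAA was in 7.43% of upper, 6.54% of lower, 6.49% of member and 8.47% of all windows. TATAAA was in 15.3% of upper, 9.35% of lower, 7.34% of member and 14.2% of all windows. The other motifs were searched in the same way, and a match is only a match of letters. The windows of 3 named genes are shown with their motif in capitals, TTCNNNGAA for Cish (chr9:107296409-107296708, plus strand) and Hamp2 (chr7:30924132-30924431, minus strand) and TGACGTCA for Zfand2a (chr5:139484442-139484741, minus strand), since Cish and Hamp2 lie in opposite tails and hold the same motif.
Cish: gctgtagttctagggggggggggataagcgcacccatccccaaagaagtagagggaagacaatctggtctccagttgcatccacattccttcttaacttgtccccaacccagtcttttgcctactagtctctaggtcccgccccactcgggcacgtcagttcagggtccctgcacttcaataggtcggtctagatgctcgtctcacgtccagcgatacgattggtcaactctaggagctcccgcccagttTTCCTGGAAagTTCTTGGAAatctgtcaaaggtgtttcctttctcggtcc
Hamp2: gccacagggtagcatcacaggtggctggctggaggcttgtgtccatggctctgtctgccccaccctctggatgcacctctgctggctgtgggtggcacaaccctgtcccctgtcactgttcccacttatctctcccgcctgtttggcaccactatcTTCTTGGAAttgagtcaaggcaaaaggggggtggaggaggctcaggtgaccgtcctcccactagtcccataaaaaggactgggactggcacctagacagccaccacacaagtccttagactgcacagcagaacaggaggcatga
Zfand2a: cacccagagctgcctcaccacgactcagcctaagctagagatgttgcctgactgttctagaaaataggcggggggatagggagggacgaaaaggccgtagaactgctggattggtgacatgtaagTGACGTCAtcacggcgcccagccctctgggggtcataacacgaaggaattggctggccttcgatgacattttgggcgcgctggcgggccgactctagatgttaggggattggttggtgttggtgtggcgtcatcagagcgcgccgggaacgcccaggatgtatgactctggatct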

How the data were processed

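RNA of right gastrocnemius was extracted with TRIzol, and libraries were made with the Lexogen QuantSeq 3′ kit. According to the study's methods and the submitters' processing notes, the authors aligned reads with Bowtie2 (build mm10), counted them with bedtools and quantile-normalized them with edgeR. Strand handling in counting was not given in the sources used here. The deposited values, 1 column per library, are log2 of the normalized count plus 1. Quantile adjustment moves each count toward a common library size. Because of the added 1, a log2 difference of a low row is understated.

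The members and gene lists were chosen with earlier results of these data known. The interaction was (cancer exercise − cancer control) − (normal exercise − normal control) of the deposited log2 values. Whole reads were rebuilt by fitting 4 scaling factors and 1 dispersion (0.3396) to the steps of the values, and 100% of values were met within 0.0006 on the log2 scale. This procedure and the interaction were tested on simulated data. Intervals are Wald intervals of the reads at 95%, for counting error only. For rows with 0 reads in a library, a floor of 3 reads per library gave a lower bound.

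Genes were named by rule: the 12 highest and lowest rows at 16 or more in every library, the 5 highest and lowest of the others, up to 4 of each list, 2 of each leading symbol family, and muscle markers. Members named only to describe a list or a marker beyond this rule were chosen after their values were seen. Of 295 named genes, 293 had coordinates in GENCODE M21 (GRCm38), and 52 shared exons with another gene of the table. Promoters came from RefSeq. Scaling, pseudocount, minimum level and threshold were varied. Python 3.11.15, numpy 2.4.6, scipy 1.17.1 and pandas 2.3.3 were used.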

Additional observations from a re-analysis of the deposited data

Results flagged for a closer look

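With 1 library per group, a gene whose level is at least 2-fold higher with exercise in one pair and at least 2-fold lower in the other has all its samples moving in opposite ways. Of the leading rows, which are the highest and lowest by interaction, 22 had this pattern. Selecting extreme interactions by itself favors opposite exercise effects, so the count only describes the selected rows. The pattern was in 24.8% of the upper tail, 29.2% of the lower tail and 1.17% of all members. In none of the 22 rows was the difference tested, since no group had a second library.

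The leading rows that were lower with exercise in healthy mice and higher in tumor-bearing mice had these interactions on the log2 scale: Ces1d 9.43, Arxes2 9.02, Mettl21e 6.93, Cyp2e1 5.75, Col1a1 4.74, Rbp7 4.33, Mybph 4.22, Ptpn3 4.21, Hbb-b2 4.14, Hbb-bt 4.14 and Tspan8 4.03. Of these, Ces1d and Arxes2 had 0 reads and Mettl21e 1 read in cancer control, so the size of their fitted values depends on the added count of 1.

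Those that were higher with exercise in healthy mice and lower in tumor-bearing mice were Hamp2 at −6.61, Tbx1 at −6.56, Mat1a at −6.06, Gm3448 at −4.49, Zfand2a at −4.25, Tnfrsf23 at −3.89, Exoc3l4 at −3.84, Ptpn9 at −3.83, Dyrk2 at −3.61, Ampd3 at −3.51 and Myom3 at −3.19. Mat1a, a methionine adenosyltransferase of liver, had 252 normalized counts in cancer control and no more than 10.9 in any other library, and no bound can be set on its interaction. Gm3448 shares exons with 3 other genes of the table.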

How the results depend on the processing

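No paired analysis was possible because each group had 1 library. For the same reason there was no replicate to leave out, and the depth limits only the counting error.

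The counts of the upper and lower tail depended most on the minimum level. They were 642 and 442 rows at a minimum mean of 16, 112 and 49 at a minimum mean 4 times higher, 91 and 53 with 64 asked of every library, and 1761 and 1543 with no minimum. At a threshold of 1 they were 1278 and 941, and at 3 they were 95 and 30. A pseudocount of 16 left 181 upper rows. Total count scaling gave 213 lower rows. The remaining alternatives, which were median of ratios scaling, centring, pseudocounts of 0 and 4, and an interval wholly past 1, kept both counts within 1.5 times.

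At a threshold of 1, rows with opposite exercise effects made up 5.4% of the upper and 4.25% of the lower tail, and 13.2% of the lower tail differed in healthy mice only. Total count scaling moved the median of the proteasome to −0.94, of zinc finger proteins to −0.31 and of complex III to 0.56. The median of the acute phase list turned to 0.053 among members at 64 or more in every library. Over the same members the medians of tendon and immediate early genes were 0.77 and −0.26. Under total count scaling the medians of the unfolded protein response and of glucocorticoid targets turned to −0.22 and −0.20. The myostatin, activin and BMP list likewise turned from 0.051 to −0.176, and the dystrophin complex from 0.221 to −0.006. At a pseudocount of 4 the neutrophil median, over 6 members, turned from −0.324 to 0.185. The interaction of Myh2 turned to −0.016 under total count scaling. The cause of these changes was not tested, except that total count scaling lowers the interaction of all rows together.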

Other observations

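Transcripts of liver were present in the muscle libraries at levels that differed between them. A list of 30 hepatocyte genes, chosen after the first of their values were seen, summed to 1176, 439, 4369 and 504 normalized counts in the sedentary healthy, exercised healthy, sedentary tumor-bearing and exercised tumor-bearing library, and 24 of the 30 were highest in cancer control. Over all members, cancer control was the highest library in 33.7% of rows. Apoc1, Mup20, Mup3, Cyp3a11 and Cyp2c29 of the list were highest in normal control instead, and Apob in normal exercise. Cyp3a11, for example, had 42.4 counts in normal control and 2.2 in cancer control. Alb, serum albumin, stood at 373, 100.3, 594 and 77.0, and Fgb, a chain of fibrinogen, at 29.8, 7.13, 959 and 40.2. Igfbp1, a liver protein that binds insulin-like growth factors, had 333 counts in cancer control and 5.49 in cancer exercise. Of these 30 genes, 8 were members. The part of this signal in the lower tail was not tested.

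Metallothioneins stood out by level and not by interaction: Mt1, which binds zinc and copper, was at 1293, 1383, 151924 and 94760, an interaction of −0.78 (−0.89 to −0.67), and Mt2 was at 727, 731, 101914 and 71814 (−0.51). The glucocorticoid targets likewise had a median of 0.03, which was −0.20 under total count scaling, although their sum was 55320, 35246, 357614 and 236723 counts.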
